A study of Bos taurus with 2 samples.

Results

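The chemokines and chemokine receptors of bovine testis were compared between crossbred and Zebu bulls on 1 microarray per group. Members were the non-control probes whose gene name begins as a chemokine or a chemokine receptor name (CXCL, CXCR, CCL, CCR, XCL, XCR or CX3C) and whose description holds the word chemokine. This gave 50 genes of the 32428 gene names on the array, with 83 probes of 60 bases in 91 spots. By their descriptions 30 of the genes were ligands and 20 were receptors. The study asked how testicular transcripts differ between crossbred bulls, in which sub-fertility is frequent, and Zebu bulls. The crossbred bulls were Holstein Friesian crosses with 50 to 75% exotic inheritance, and the Zebu bulls were of the Tharparkar breed. All bulls were 24 months old, and testis RNA of 3 bulls per group was pooled before it was labelled with Cy3. No single bull was measured and no array was repeated, so differences are given without p-values.

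Chemokines are small secreted proteins that attract white blood cells along a gradient, and their receptors are G protein coupled receptors on the cells that migrate. Their families are named after the spacing of conserved cysteines as CXC, CC, XC and CX3C. In the testis, immune cells are largely kept to the interstitial tissue outside the seminiferous tubules, where macrophages lie beside the steroid-producing Leydig cells. CXCL12 and its receptor CXCR4 are also known for guiding germ cells and for keeping spermatogonial stem cells in their niche.

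Values are log2 of the processed signal of the scanner software minus the 75th percentile of the array, and every difference is crossbred minus Zebu. A gene was read from its member probe with the highest mean log2 signal. It counted as measured where the scanner software marked all spots of that probe as well above background on at least 1 array. Where a gene was dim on the other array, its fold is a bound, taken against the higher of the signal of the dim spot and the lowest signal that array showed well above background. Such a gene was counted as higher or lower by its own signals, and it entered medians at its bound. The SD of a difference between spots of the same probe was 0.34, which covers spotting and scanning and not the animals. It was pooled over 5962 probes with spots well above background on both arrays, so near the floor it can be too small. The scanner software also gives an error for each signal. Carried to the difference, this scanner error was 0.39 for CXCR3 and 0.89 for CXCL11, both dim, against 0.20 for CXCL9. In pooled testis RNA, fewer cells of a type and less RNA per cell cannot be told apart.

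Of the 50 genes, 35 were measured, 29 of them in both pools, 3 in crossbred testis alone and 3 in Zebu testis alone. CCL26 is among those of crossbred testis alone only because not all of its Zebu spots were well above background. With a threshold of 1.5 on the log2 scale, 3 of the 35 were higher in crossbred testis, against 7.12% of all 24751 measured gene names, and 5 of the 35 were lower, against 2.92%. These are 8.57% and 14.3% of the measured members. The 3 genes that were higher all code for ligands, CCL20, CCL24 and CXCL13. The 5 that were lower were the ligands CCL16, CXCL9, CXCL11 and CXCL14 and the receptor CX3CR1. The middle of the family did not shift with them. The median difference was -0.02 over the 35 members, -0.05 over the 24 measured ligands and -0.02 over the 11 measured receptors, beside -0.05 over all measured gene names, and with normexp background correction all 3 medians of the members were 0.04. The 35 members divided about evenly, 17 above 0 and 18 below, and 14 of them differed by less than the SD between spots. The 17 take in CCL26, for which no direction is given below.

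**Figure D1:**
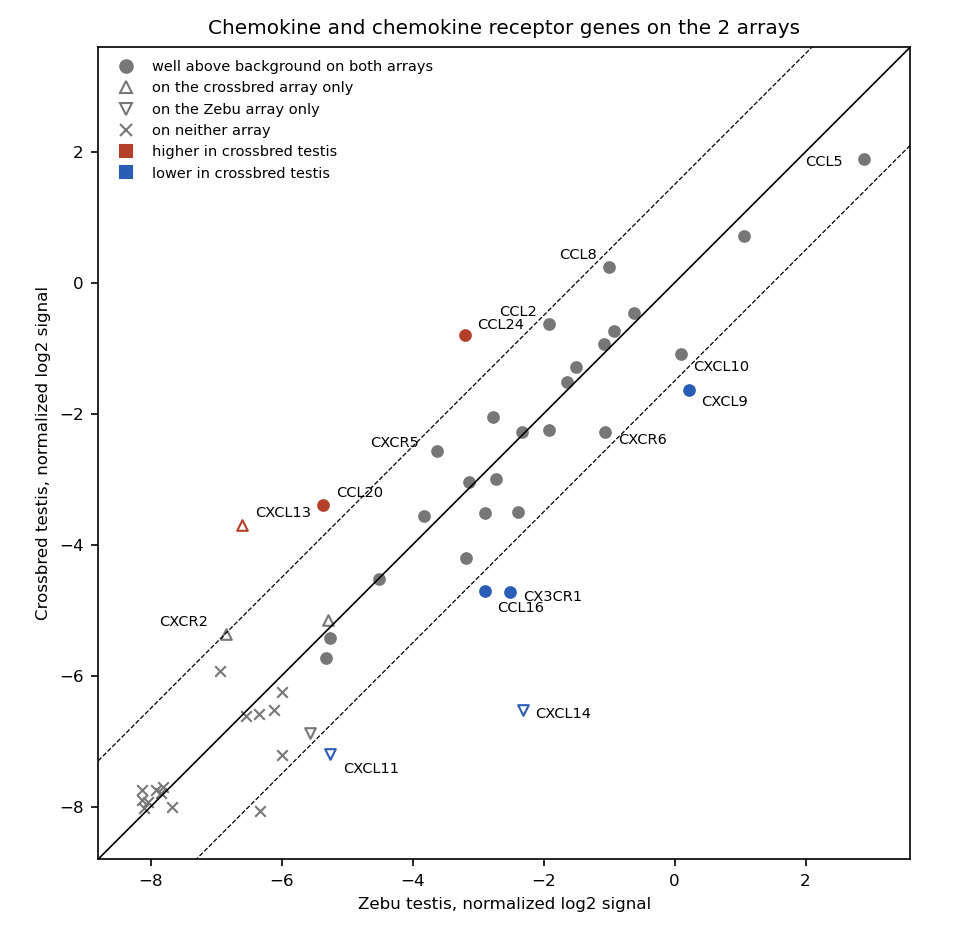
Normalized log2 signal of the 50 member genes on the Zebu array (x axis) and the crossbred array (y axis), 1 point per gene, with the line of equal signal and dashed lines at a difference of 1.5. The 3 genes higher in crossbred testis are in red and the 5 lower ones in blue, open triangles stand for genes well above background on 1 array only, and crosses for the 15 genes well above background on neither. Levels of different genes come from different probes and are not set against each other.

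Of the 3 CXC ligands that interferon gamma induces, 2 were counted as lower in crossbred testis, against 2.92% of all measured gene names, and 1 of these calls does not reach the threshold by its bound. CXCL9, CXCL10 and CXCL11 are made by many cell types in answer to interferon gamma, and all of them attract activated T cells and NK cells through the receptor CXCR3. For CXCL9 the values were -1.63 in crossbred and 0.22 in Zebu testis, which differ by -1.85, or 3.61-fold lower. CXCL10 had -1.09 and 0.10 in its brightest probe, and its 3 probes differed by -1.18, -1.06 and -0.77, so that each of them was lower by more than the SD between spots and none reached 1.5. CXCL11 had -7.20 in crossbred testis, which was not well above background, and -5.26 in Zebu testis, a level at least 1.43-fold lower. It is counted as lower because its own signals differ by -1.94, the bound alone would not reach the threshold, and with normexp it was not counted, with a value of -0.27. A further CXCL11 probe, whose description names a cDNA clone and which the rule therefore leaves out, was well above background on both arrays with -5.07 and -2.86, a difference of -2.21. The probes behind CXCL9 and CXCL11 are shown because the calls in this group rest on them.
CXCL9: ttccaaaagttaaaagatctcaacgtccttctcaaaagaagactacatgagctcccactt
CXCL11: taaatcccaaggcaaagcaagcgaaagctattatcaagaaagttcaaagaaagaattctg

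CXCL9 also has a probe outside the rule, from a cDNA clone, that was not well above background on either array. The receptor CXCR3 was measured near the floor, with -5.73 in crossbred and -5.32 in Zebu testis, and differed by -0.41. With normexp, CXCR3 differed by -0.10 and CXCL9 by -1.68.

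Genes of the interferon gamma response were read beside these ligands. A list of 16 genes of this axis was measured in full on both arrays. IFNG, which codes for the cytokine itself, had -4.34 in crossbred and -2.83 in Zebu testis. It differed by -1.51 and was the 1 gene of the list past 1.5. It passed the threshold by much less than its scanner error of 0.23, so this call is at the edge. SOCS1, a feedback inhibitor of cytokine signalling, differed by -1.12, and the guanylate-binding protein gene GBP5 by -1.05. IRF1, a transcription factor that carries the interferon signal, differed by -0.67. In all, 14 of the 16 genes were below 0, against 13080 of all 24751 measured gene names, and 1 was lower past 1.5, against 2.92%. Of the 16, 7 were within the SD and 2 were above 0. The median was -0.46, with a range of -0.56 to -0.40 over other scalings, signals and surface treatments.

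Among the other CXC ligands, CXCL13 and CXCL14 stood far apart in opposite directions. CXCL13, which draws B cells into lymphoid follicles, was well above background in crossbred testis alone. Its 2 probes, which share no run of 20 bases, had -3.70 and -3.67 in crossbred testis and -6.60 and -7.11 in Zebu testis, where they were not well above background. The bounds were at least 4.71-fold and at least 4.83-fold higher in crossbred testis. CXCL14, a ligand made by epithelia and stroma that attracts monocytes and dendritic cells, had the opposite pattern in its single probe. It had -6.52 in crossbred testis, not well above background, and -2.31 in Zebu testis, a level at least 11.0-fold lower. With normexp, which adds an offset and draws dim values together, the bounds on the log2 scale moved from 2.24 to 1.04 for CXCL13 and from -3.47 to -1.81 for CXCL14.

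CXCL12 was read differently by its probes. The brightest of its 4 probes had -3.49 in crossbred and -2.40 in Zebu testis, a difference of -1.10, another differed by -0.63, and 1 more by 0.22, while the last was not well above background on either array. The mean over the 4 probes differed by -0.38, and with normexp the brightest probe differed by -0.43. CXCL16, a membrane-bound ligand that can be shed, differed by 0.19 in its brightest probe and by -0.48 in the other, and the mean of both was -0.15. CXCL17, a ligand of mucosal tissue, was near the floor and differed by -0.17.

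The neutrophil-attracting CXC ligands were mostly dim. CXCL3 differed by -0.28, within the SD between spots, and CXCL2 and CXCL6 were not well above background on either array. The RefSeq gene table of the ARS-UCD2.0 assembly, in which all 50 members found a match, 44 of them by accession, gives CXCL6 the name CXCL5, CXCR7 the name ACKR3 and CCRL1 the name ACKR4. The names of the array are kept here.

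**Figure D2:**
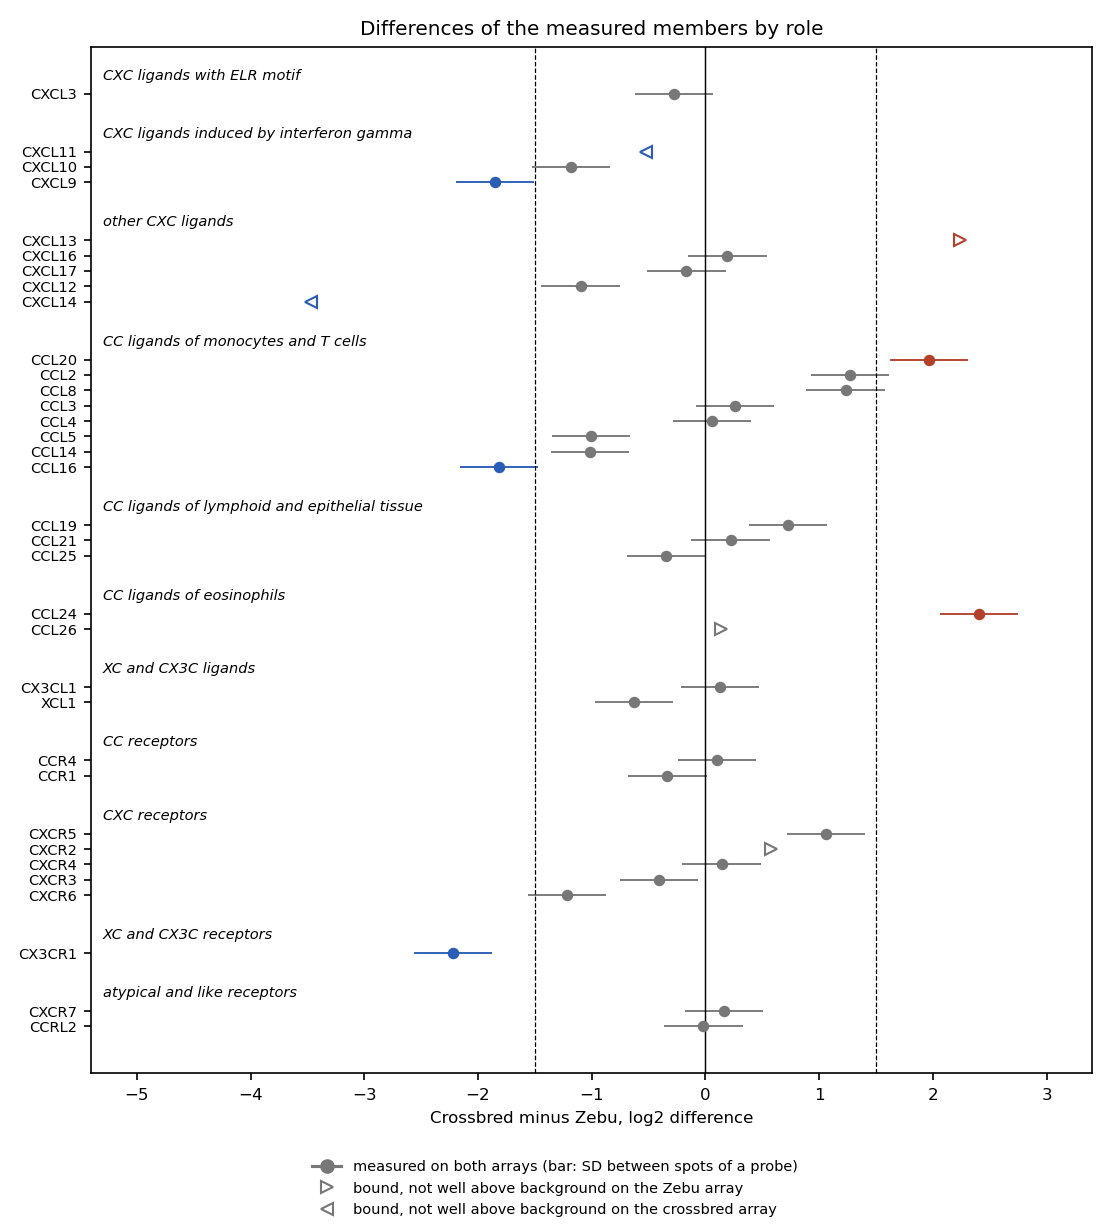
Difference, crossbred minus Zebu on the log2 scale (x axis), of measured member genes (y axis), grouped by role. Filled points with bars of 1 SD between spots (0.34) were measured on both arrays, open triangles are bounds that point towards larger differences, dashed lines mark 1.5, and red and blue mark the 3 genes counted as higher and the 5 counted as lower. No direction is read from the triangle of CCL26, whose spots went in opposite directions.

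Of the 8 measured CC ligands of monocytes and T cells, 1 was higher past 1.5 in crossbred testis, CCL20, and 1 was lower, CCL16. These are 12.5% each, against 7.12% and 2.92% of all measured gene names. The others lay on both sides of 0 and did not reach 1.5. CCL2 and CCL8, also known as monocyte chemoattractant proteins, recruit monocytes. For CCL2 the values were -0.64 in crossbred and -1.91 in Zebu testis, 1.27 apart, and a dimmer probe gave 0.88. CCL8 had 0.23 and -0.997, a difference of 1.23, and 1.26 in its other probe. Neither reached 1.5. CCL3 and CCL4, which macrophages and T cells release, differed by 0.26 and 0.06, within the SD, and a dimmer CCL3 probe differed by 0.82.

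CCL5, CCL14 and CCL16 had lower values in crossbred testis. CCL16, a ligand of monocytes and lymphocytes, had -4.71 in crossbred and -2.90 in Zebu testis, a difference of -1.82, or 3.52-fold lower. With normexp CCL16 differed by -0.87. CCL14, a ligand found in plasma at steady state, had -4.20 and -3.18 and differed by -1.02. CCL5, a ligand released by activated T cells and NK cells, had 1.88 and 2.89 in its brightest probe, a difference of -1.01, and -0.88 in another probe. The remaining CCL5 probe, printed below, had -3.48 and -0.38 and differed by -3.09. Its spot was the 1 member spot of 91 that lies in the dark patch of the crossbred array, and its 18 nearest spots had a median difference of -2.34.
CCL5 probe in the dark patch: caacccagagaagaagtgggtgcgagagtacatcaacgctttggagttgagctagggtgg

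The mean over the 3 CCL5 probes, which takes in this spot, differed by -1.66, past the threshold that neither of the other probes reached. No member spot lay in the bright patch. Over the measured spots of the dark patch the median difference was -1.37 and over those of the bright patch 1.29, against -0.07 on the whole array.

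CCL20, a ligand that attracts dendritic cells and T cells carrying CCR6, was higher in crossbred testis in 1 of its probes only. That probe, placed on chromosome 2 from 120594117 to 120594176 of HGSC Btau_3.1, had -3.39 in crossbred and -5.36 in Zebu testis, a difference of 1.97, or 3.91-fold higher. The probe designed on the RefSeq transcript had -7.84 and -7.998 and was not well above background on either array, and neither was a further probe from a cDNA clone. The 2 probes of the rule are printed because they are similar in sequence and read differently. They were not aligned to a genome here, so whether the probe on chromosome 2 reads CCL20 alone was not tested. They overlap by 46 bases, of which 41 match and 5 differ, and capitals mark the bases that differ. Counted from 1 at the 5′ end of the probe on chromosome 2, the substitutions are A9G, C30T, C31T, C32T and A36G.
CCL20 probe on chromosome 2: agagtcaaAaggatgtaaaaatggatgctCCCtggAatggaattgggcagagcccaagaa
CCL20 probe of the RefSeq transcript: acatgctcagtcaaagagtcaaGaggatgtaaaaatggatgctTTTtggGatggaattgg

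The mean of the member probes of CCL20 differed by 1.06, and with normexp the probe on chromosome 2 differed by 0.87, so that the gene was past 1.5 in the brightest probe of the processed signal and in neither of these. CCL17 and CCL22, ligands of the T cell receptor CCR4, were not well above background on either array.

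CCL24, a ligand of eosinophils, was higher in crossbred testis. It had -0.80 in crossbred and -3.21 in Zebu testis, a difference of 2.41, or 5.31-fold higher. Its 2 spots had processed signals of 715 and 640 on the crossbred array and of 133 and 134 on the Zebu array, so the spots of the arrays did not overlap. These spots are copies of the same probe read from the same pools, and they say nothing of the spread between bulls. CCL24 differed by 1.93 with normexp and was counted as higher under every other choice of signal, scaling, surface, threshold and filter. CCL26, a ligand of the same receptor, was near the floor. Its 2 spots had processed signals of 28.4 and 38.3 on the crossbred array and of 21.5 and 45.7 on the Zebu array, so they went in opposite directions, and no direction is given for this gene. CCL11, which also binds this receptor, and the receptor itself, CCR3, were not well above background on either array.

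The ligands of lymphoid and epithelial tissue differed less. CCL19 and CCL21 guide T cells and dendritic cells into lymph nodes. CCL19 had -2.04 in crossbred and -2.77 in Zebu testis and differed by 0.73, and CCL21 differed by 0.22 in a probe that shares a run of 51 bases with the other CCL21 probe, which differed by 0.28. CCL25, a ligand of thymus and gut, differed by -0.35. CCL28 was not well above background in its member probe, and in a probe outside the rule it had -5.43 and -4.74. XCL1, which T cells and NK cells secrete, differed by -0.63, and CX3CL1, a membrane-bound ligand of endothelium and neurons, by 0.13, or by 0.50 with the nearest spots subtracted.

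Fewer receptors than ligands were measured, 11 of 20 against 24 of 30. CX3CR1, the receptor of CX3CL1 on monocytes, macrophages and NK cells, was the receptor with a difference past 1.5. It had -4.73 in crossbred and -2.51 in Zebu testis, a difference of -2.22, or 4.66-fold lower. Its other probe was well above background in Zebu testis only, with -7.38 and -5.19, at least 1.501-fold lower. With normexp CX3CR1 differed by -1.28. CXCR6, the receptor of CXCL16 on activated T cells, had -2.28 and -1.06 and differed by -1.22.

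CXCR5, the receptor of CXCL13 on B cells and follicular helper T cells, had -2.57 in crossbred and -3.63 in Zebu testis, a difference of 1.06. The spots around this probe were also brighter on the crossbred array, with a median difference of 0.81, and once that was subtracted CXCR5 differed by 0.20. The other CXCR5 probe was not well above background on either array, and the mean over both was -0.02. CXCR4 and CXCR7, the receptors of CXCL12, differed by 0.14 and 0.16, within the SD, and with the nearest spots subtracted CXCR4 differed by 0.61. Their other probes differed by 0.27 for CXCR4 and by 0.50 for CXCR7, the latter past the SD. CXCR2, a receptor of neutrophils, had -5.36 in crossbred and -6.84 in Zebu testis, where it was not well above background, at least 1.49-fold higher. Of 2 CXCR2 probes outside the rule, described as an interleukin 8 receptor, 1 was at least 1.83-fold higher and the other was dim on both arrays. The former is placed at 110617192 on chromosome 2, nearer to the CXCR1 probe than to the CXCR2 probe of the rule.

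CXCR1, the neighbouring neutrophil receptor, was not well above background on either array. Its probe and the CXCR2 probe are shown because these receptors are close in sequence. They overlap by 38 bases, of which 29 match and 9 differ, and capitals mark the bases that differ.
CXCR2: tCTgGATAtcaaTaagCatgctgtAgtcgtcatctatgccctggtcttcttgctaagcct
CXCR1: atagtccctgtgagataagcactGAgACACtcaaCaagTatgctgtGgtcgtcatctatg

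Most CC receptors were dim. CCR1, a receptor of CCL3 and CCL5 on monocytes, differed by -0.33, or by -1.20 as the mean with a probe dim on both arrays, and CCR4 by 0.10. CCR2, CCR3, CCR6, CCR7, CCR8 and CCR9 were not well above background on either array, and neither were XCR1 and the scavenging receptor CCRL1. CCRL2, which binds chemerin without signalling, differed by -0.02.

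Ligands and receptors that bind each other were set side by side. Of 31 listed pairs, 25 had both partners among the members by the names of the array, and 13 had both partners measured. CXCL5 with CXCR2 is not among the 25, because the array names this ligand CXCL6. In 9 pairs the ligand was measured and the receptor was dim on both arrays. These include CCL20 with CCR6, CCL24 with CCR3, CCL2 and CCL8 with CCR2, and CCL19 and CCL21 with CCR7. CCL24 was higher in crossbred testis, and so was CCL20 in 1 of its probes only, while the receptors of both were dim in both groups. In 4 pairs both partners differed by more than the SD between spots, CXCL13 with CXCR5, both above 0, and CXCL9, CXCL10 and CXCL11 with CXCR3, all below 0, and the last 3 pairs share their receptor. Which pairs pass, and whether their partners share a direction, depends on the choices made. CXCR3 was near the floor, and its difference of -0.41 was about the size of its scanner error of 0.39. That difference became -0.31 with quantile normalization and -0.10 with normexp, both within the SD, so these 3 pairs do not hold under either. With the nearest spots subtracted CXCR5 was within the SD, and 2 pairs then passed the SD in opposite directions, CXCL12 at -1.19 with CXCR4 at 0.61 and CX3CL1 at 0.50 with CX3CR1 at -1.91. As the mean over probes CCL3 at 0.54 and CCR1 at -1.20 also did, but the mean of CCR1 takes in a probe that was dim on both arrays. CCL5 and CCR1 passed the SD in the same direction, below 0, with the nearest spots subtracted, as the mean over probes, with quantile normalization and with the 75th percentile of probes well above background on both arrays. Without these changes CX3CR1 differed by -2.22 and CX3CL1 by 0.13, and CXCR6 by -1.22 and CXCL16 by 0.19.

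Genes with several probes gave the same direction in most cases. Among the 17 genes with at least 2 measured member probes, the spread between the lowest and the highest difference was largest for CCL5, with 2.21, and its lowest value comes from the dark patch. CCL8 had a spread of 0.03 and CCR4 one of 0.10. Spreads that rest on bounds, as in CXCL13 and CXCL17, are set by the floor of the array and are not given. CXCL12 was the 1 gene whose measured probes lay on both sides of 0 and more than 1 apart. Around the 91 member spots the median difference of the nearest spots ran from -2.34 to 0.81 with a median of -0.09, and it was under 0.5 in size at 84 of them.

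**Figure D3:**
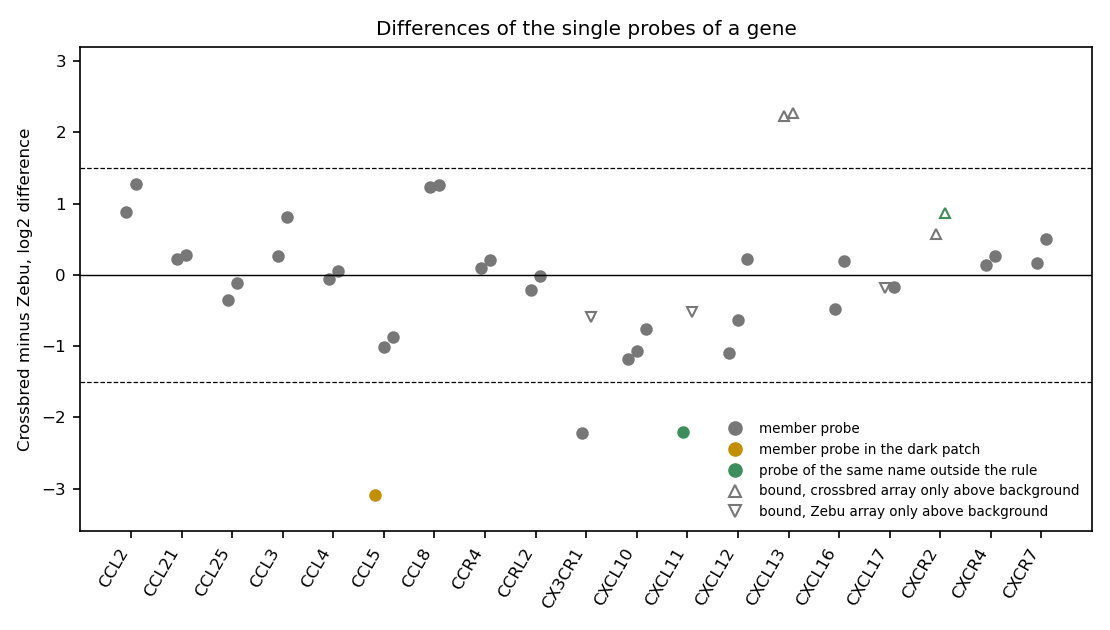
Difference, crossbred minus Zebu on the log2 scale (y axis), of each measured probe of the genes (x axis) that have at least 2 measured probes. The CCL5 probe at -3.09 lies in the dark patch, green marks probes of the same gene name that the rule leaves out, open triangles are bounds, and dashed lines mark 1.5.

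Members that lie next to each other on a chromosome were also read together. Positions come from the annotation of the array, HGSC Btau_3.1, and neighbours were members less than 500 kb apart. CXCL9, CXCL10 and CXCL11 lie within 41.9 kb on chromosome 6, from 94105453 to 94147318, and all of them were below 0, CXCL9 and CXCL11 past the threshold by their own signals and CXCL10 not. CXCL13 lies on the same chromosome from 95652748 to 95652940 and was higher.

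The CC ligands of chromosome 19 form 2 groups, in which CCL16 alone passed 1.5. In the group from 13801571 to 13977591, the neighbours CCL14, CCL16 and CCL5 differed by -1.02, -1.82 and -1.01, while CCL4 and CCL3 at its other end differed by 0.06 and 0.26. In the group from 15404030 to 15665769, CCL8 and CCL2 differed by 1.23 and 1.27, and CCL11 between them was not well above background on either array. The median over the group was -1.01 in the former and 1.25 in the latter. The 3 other gene names measured within the former had a median of -0.44, and the 1 within the latter differed by 0.09.

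Among the receptor genes that are neighbours on chromosome 22, CCRL2, CCR1 and CXCR6 differed by -0.02, -0.33 and -1.22. CX3CR1 lies elsewhere on chromosome 22, from 12754781 to 12755310, beside CCR8, which was not well above background on either array. CCL19 and CCL21 are neighbours on chromosome 8, and both were above 0, while CCL24 lies on chromosome 25 beside CCL26, whose spots differed in direction. Directions within a group rest on 1 array per group, and whether neighbours share a direction more often than other genes was not tested.

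**Figure D4:**
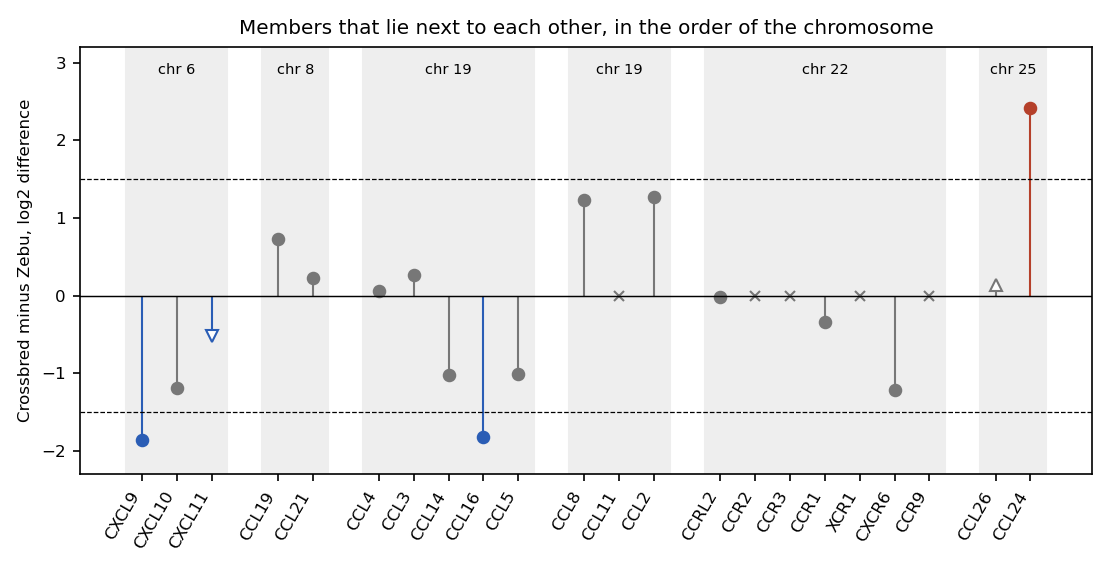
Difference, crossbred minus Zebu on the log2 scale (y axis), of selected members that lie within 500 kb of each other, in the order of the chromosome (x axis), for groups with at least 2 measured genes. Open triangles are bounds, crosses at 0 are genes well above background on neither array, and dashed lines mark 1.5. On chromosome 19 CCL5, CCL14 and CCL16 lie below -1 and CCL2 and CCL8 above 1.

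Chemokine family genes under other names were read as a list of 26, of which 20 were on the array and 16 were measured. Higher in crossbred testis were 2, FAM19A4, a chemokine-like gene of the nervous system, by 2.02, and LOC525286 by 1.51 (12.5%, against 7.12% of all measured gene names). Of the 3 counted as lower (18.8%, against 2.92%), each was above background in Zebu testis only. GRO1, a neutrophil-attracting ligand, was at least 1.04-fold lower and LOC529196 at least 1.76-fold lower. Both are counted by their own signals, and neither reaches the threshold by its bound. CCBP2, the scavenging receptor now named ACKR2, was at least 3.16-fold lower, but its spot lies in the dark patch and its nearest spots had a median difference of -3.18. The median of the list was -0.40, and -0.25 with the spots of both patches left out. IL8, also named CXCL8, differed by 0.14, and CMTM2, a chemokine-like gene of the testis, by 0.58.

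Few signalling genes behind the receptors passed the threshold. Of 34 listed genes 31 were measured, 1 was higher past 1.5 (3.23%, against 7.12% of all measured gene names) and 0 were lower (against 2.92%), with a median of -0.16. The gene that was higher was DPP4, a membrane peptidase that trims chemokines at their amino terminus, with -2.87 in crossbred and -5.36 in Zebu testis. Its difference was 2.49, and its nearest spots had a median difference of 0.90. RGS1, which damps G protein signalling in lymphocytes, differed by -1.26, and PIK3R5, a regulatory subunit of phosphoinositide 3-kinase gamma, by 1.02.

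Markers of immune cells were read beside the chemokines of these cells. All 6 B and plasma cell markers on the array were measured and above 0, against 11587 of all 24751 measured gene names. The median of the 6 markers was 1.92. Of them, 3 were counted as higher (50%, against 7.12% of all measured gene names). PAX5 differed by 4.24, with a median of 0.95 around it, IGJ differed by 3.102, and MS4A1 was above background in crossbred testis only, at least 20.4-fold higher. CD79A and CD79B differed by 0.25 and 0.75. The summed normalized signal of the list was 6.75 in crossbred and 1.62 in Zebu testis. This sum adds levels of different probes, is led by the brightest of them and does not measure the amount of cells. These markers were above 0, CD79A within the SD between spots, and so was CXCL13. CXCR5 was above 0 in its brightest probe. It differed by 0.20 with the nearest spots subtracted and by -0.02 as the mean over its probes. The part of B and plasma cells in the values of CXCL13 and CXCR5 was not tested.

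T cell markers were mostly below 0. Of 7, all measured on both arrays, 6 were below 0, against 13080 of all 24751 measured gene names, and 2 were within the SD, with a median of -0.56. None of the 7 passed 1.5, where 7.12% of all measured gene names were higher and 2.92% lower, and with so few markers this says little. CD3E differed by -0.93, CD247 by -0.75, CD3D by -0.56 and CD4 by 0.07. The summed signal, which likewise does not measure the amount of cells, was 7.55 in crossbred and 9.70 in Zebu testis. Of the 4 NK cell markers, PRF1 differed by -0.72 and KLRD1, above background in Zebu testis only, was at least 1.59-fold lower, while NCR1 and KLRB1 were not well above background on either array. These are the cells that CXCL9, CXCL10, CXCL11, CCL5 and XCL1 attract or that release them, and the part of these cells in the lower values was not tested.

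Macrophage markers had no common direction. CSF1R, CD68 and CD14 differed by -0.19, 0.20 and 0.56, and AIF1 by 1.95. CD163 was near the floor and ITGAM was not well above background on either array. The median of the 5 measured was 0.20, while CX3CR1, which macrophages carry, fell by 2.22, and CCL2 and CCL8, which macrophages release, were above 1. Among granulocyte markers MPO differed by 2.11, S100A8 by 0.58 and CSF3R by 0.57. EPX, the defining enzyme of eosinophils, and S100A9 were not well above background on either array. The endothelial list had a median of 0.08, which turned to -0.15 once the nearest spots were subtracted.

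The tissue itself was checked with markers of germ cells and of somatic cells, and each marker read was measured in both pools. All 5 spermatid markers were above 0, against 11587 of all 24751 measured gene names, with a median of 1.64. Of the 5 spermatid markers, 3 were counted as higher (60%, against 7.12% of all measured gene names), led by ODF1 with 2.13. All 5 Leydig cell markers were below 0, against 13080 of all 24751 measured gene names, with a median of -0.998. Of the 5 Leydig cell markers, 2 were lower past 1.5 (40%, against 2.92% of all measured gene names), CYP17A1 by -1.68 and HSD3B1 by -1.77. The 4 Sertoli cell markers read were also below 0, with a median of -1.23, and 1 was lower past 1.5 (25%, against 2.92%). PRM1 and TNP1 differed by 0.36 and 0.49, less than the other spermatid markers. The part of these cells in the differences of the chemokines was not tested.

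**Figure D5:**
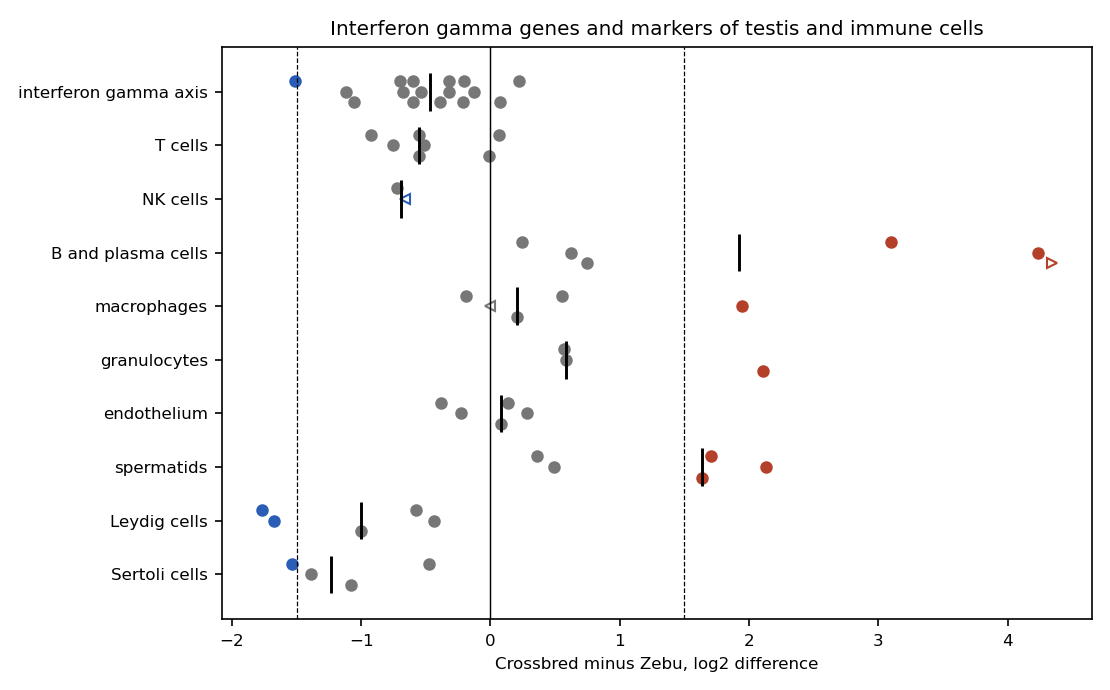
Difference, crossbred minus Zebu on the log2 scale (x axis), of the measured genes of each list (y axis), 1 point per gene, with the median of the list as a black bar, bounds as open triangles and dashed lines at 1.5. The T cell median lies at -0.56, the B and plasma cell median at 1.92 and the spermatid median at 1.64.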

How the data were processed

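RNA of 3 crossbred and 3 Zebu bulls was pooled by group and measured on 1 array each, without replicates, and no test was made. Processed signals were deposited by the authors as an intensity per spot that, per the file headers, Agilent Feature Extraction 11.5.1.1 had background-subtracted and detrended. Mean spot and median local background intensities were deposited uncorrected. The authors also deposited log2 values, shifted to the 75th percentile, which matched the values computed here with Pearson correlations of 0.999 and 1.000 across 51279 probes and medians of -3.00 and -3.01.

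Control spots and 13 outlier spots were left out, and 0 spots were saturated. For each probe the mean log2 processed signal of its spots was taken, less the 75th percentile of the array (1176 and 1233 on the signal scale). Named genes were members past 1.5, partners of listed pairs, members named in the paper, and members whose probes differed in direction by more than 1. The other members, CCL14, CCRL1, CCRL2, CXCL2, CXCL3, CXCL6, CXCL17 and CXCR1, were to be given by counts alone and were added by name after their values were seen; a few genes that enter the counts and medians are not reported here by name. Members and lists were chosen with earlier results of these data known. Alternatives changed the signal (normexp, offset 50), scaling, source of values, probes, surface, threshold and filter. Steps were tested on simulated data. Versions were limma 3.58.1 in R 4.3.3, and scipy 1.17.1, pandas 2.3.3, numpy 2.4.6 under Python 3.11.15.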

Additional observations from a re-analysis of the deposited data

How the results depend on the processing

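Over 9 other choices and 1 chosen after seeing the data, the medians of members, ligands and receptors moved by less than the SD between spots. The counts were read under 13 other choices and the added 1. The count of 3 genes higher became 1 with normexp, 7 at a log2 difference of 1, 2 at a log2 difference of 2, 8 at a linear fold of 1.5, 2 among genes well above background on both arrays, 2 as the mean over probes and 4 with quantile normalization. The count of 5 genes lower became 2 with normexp, 11 at a log2 difference of 1, 2 at a log2 difference of 2, 12 at a linear fold of 1.5, 3 among genes well above background on both arrays, 6 as the mean over probes and 6 without a filter. Normexp adds an offset that draws dim values together, and it also lowered the counts over all gene names, to 1030 higher and 169 lower from 1762 and 722. Of all measured gene names 12.8% were higher and 8.87% lower at a log2 difference of 1, 3.49% and 1.20% at 2, 21.4% and 22.2% at a linear fold of 1.5, and 6.32% and 1.74% among those well above background on both arrays. As the mean over probes 6.21% were higher and 2.65% lower, and with quantile normalization 6.98% and 2.77%. Without a filter 5.93% of all gene names were higher and 2.83% lower. Of 279 values of named genes under the alternatives, 263 moved by less than the SD and 16 by more. CXCL16 and CXCR5 turned to below 0 as the mean over their probes, and CCL26 became 0 with the authors' value table. CXCL11 differed by -2.21 under the choice added later, which takes the brightest probe of the gene name also outside the rule. Signals near the floor limit CXCL11, CXCL13, CXCL14, CXCR2 and CXCR3. No paired analysis was possible because the result comes from no test and each group has 1 array.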
